A study of Rattus norvegicus with 6 samples.

Results

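The insulin-like growth factor 1 axis was followed here through 7 genes: the ligand Igf1, its receptor Igf1r, and the binding proteins Igfbp2, Igfbp3, Igfbp4, Igfbp5 and Igfbp6. They were taken as every probe set annotated with 1 of these symbols alone, which gave 12 probe sets of the 15923 on the array, or 7 of the 10412 genes it names by a single symbol. Total RNA came from tibialis anterior muscles of 3 male Wistar rats, whose nerve supply had been cut and restored. Their stated age of 8 weeks is read here as that before surgery, since the times that follow rule it out as the age at sampling. The peroneal nerve was divided and joined to the biceps femoris, its stumps were joined to each other 4 weeks later, and survival lasted 8 weeks, read here as following that repair. The ipsilateral group is the tibialis anterior on the operated side (n = 3, animals 4, 5 and 6), and the contralateral group is the same muscle of the other leg of the same animals (n = 3), taken from the abbreviation Cont in the sample names. The contralateral muscle belonged to an operated animal, so no muscle of an unoperated rat enters any comparison.

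IGF1 is a secreted growth factor that skeletal muscle makes itself, in addition to what the liver releases under growth hormone, and it promotes protein synthesis and the proliferation and differentiation of muscle precursor cells. It binds the receptor tyrosine kinase IGF1R, which signals through the IRS adaptors to PI3K, Akt and mTOR and through Shc and Grb2 to Ras and the MAP kinases. The binding proteins hold IGFs outside the cell with high affinity. They can keep the ligand from the receptor or, depending on proteolysis and attachment to matrix, release it there.

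Each value is the deposited linear intensity of a probe set in 1 library, and the number of arrays limits the precision. Array medians ran from 61.2 to 63.1 in ipsilateral and from 60.2 to 66.6 in contralateral libraries. All 10 skeletal muscle markers were above the filter on dim probe sets, none of them was at 0, and their summed intensity was 37740 to 47212 in ipsilateral and 41541 to 46378 in contralateral muscle. The sum hides single markers, of which 2 were higher and 2 lower in all 3 animals (12.1% and 15.8% of all tested genes). Myh7 averaged 2377 in ipsilateral and 684 in contralateral muscle, and Myh4 averaged 1476 and 2641. Both muscles of animal 4 stood apart in the cre hybridisation spikes. These averaged 1073 in its ipsilateral and 778 in its contralateral library, against 2018 to 2923 in the other 4 libraries. The sperm protamine Prm1, a transcript foreign to muscle, was at 617 in ipsilateral 4, against 39.5 to 248 in the other 5 libraries. The beta-actin signal at the 3' end over that in the middle, a sign of RNA integrity, was 2.87 in ipsilateral 6 and 2.77 in contralateral 4, against 1.36 to 1.68 in the others.

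The question was how the reinnervated muscle compared with its counterpart in the other leg. Of the 12 probe sets, 10 were bright enough to be tested, from 6 of the 7 genes. In limma's paired fit 0 of these 10 had a Benjamini-Hochberg adjusted p under 0.05, as did 0% of all 9519 tested probe sets. At an unadjusted p under 0.05 there was 1 of the 10, a probe set of Igfbp3, against 6.36% of all tested probe sets. That probe set averaged 40.8 in ipsilateral and 72.3 in contralateral muscle, so it passed the filter on dim probe sets, an intensity of 42.4, through its contralateral values. It was no longer tested with a filter at the 60th percentile, when 0 members had an unadjusted p under 0.05. Igfbp3 was measured lower in the ipsilateral muscle of every animal by both of its probe sets, with folds of 0.64 and 0.80 after the constant described below was added to the intensities. The Igfbp6 values split by animal, Igf1 gave opposite signs in its 2 probe sets, and Igf1r, Igfbp4 and Igfbp5 varied in sign between animals. Because nothing passed the adjusted threshold, all values below are measured differences that did not reach it. Differences are log2(intensity + 15.8), ipsilateral minus contralateral, with limma's standard error (SE) over 3 pairs. The added constant makes the differences of dim probe sets too small. Folds are back-transformed from that scale, and each 95% interval stands for its own probe set, with no allowance for the number of probe sets.

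**Figure D1:**
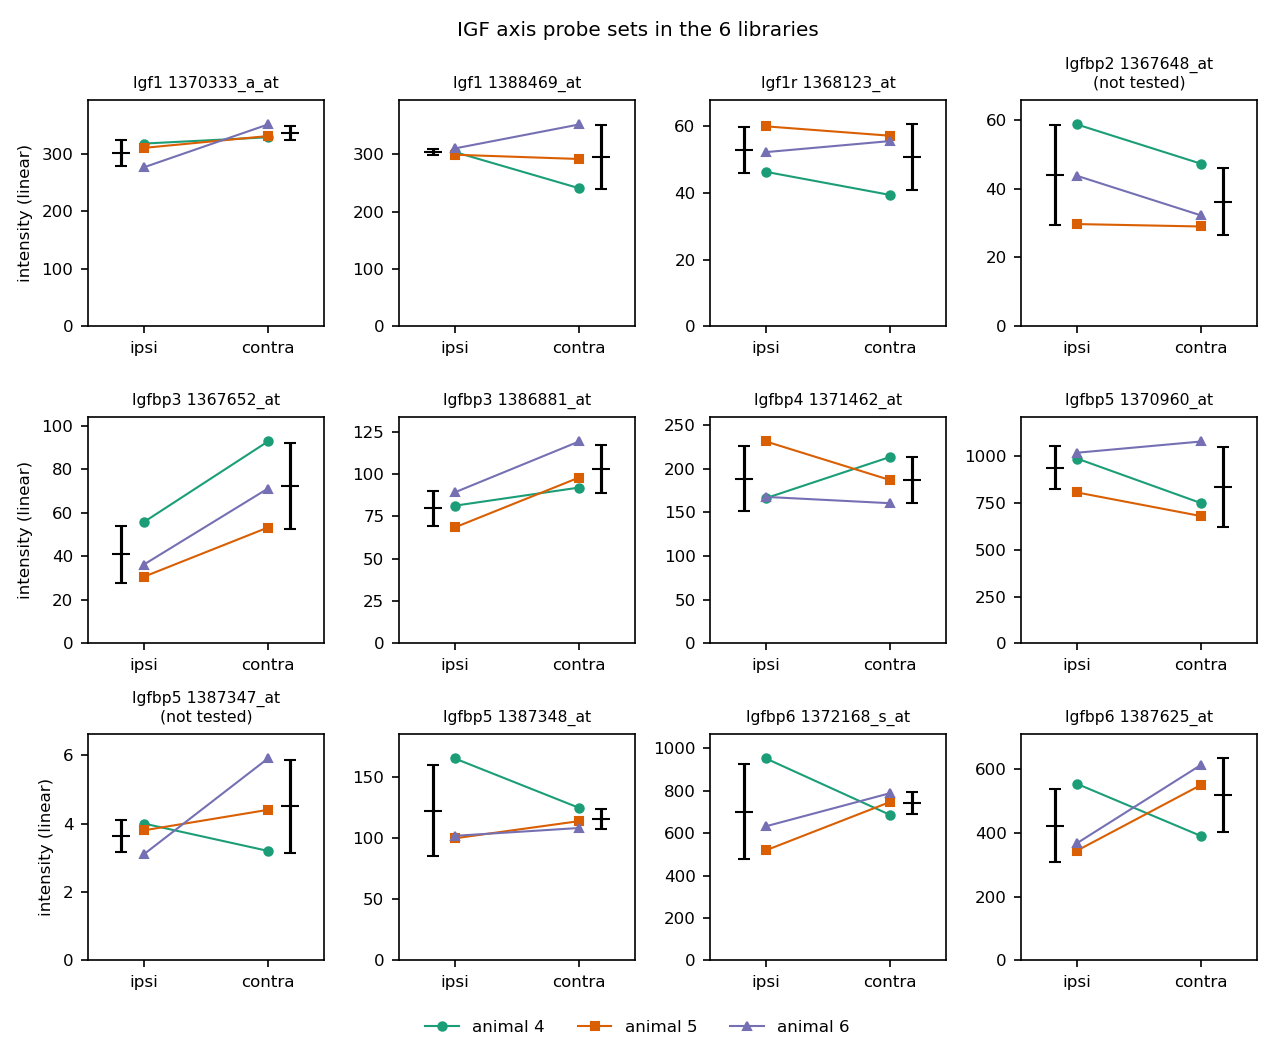
Deposited intensity (linear, each panel from 0) of the 12 probe sets in ipsilateral (left) and contralateral (right) muscle. Lines join the muscles of 1 animal, and black bars are group means with SD over 3 libraries. All 3 lines slope the same way in both Igfbp3 panels, while the line of animal 4 crosses the other lines in both Igfbp6 panels.

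Igf1, the ligand, had a pair of tested probe sets. With 1370333_a_at its intensity was 317.9, 310.4 and 276.6 in the ipsilateral muscles of animals 4, 5 and 6, against 328.9, 331.0 and 351.1 in the contralateral muscles. The 3 ipsilateral values lay below the 3 contralateral ones without overlap. Groups without overlap in this direction were found for 5.78% of all tested probe sets, and for 2 of the 10 here. The difference was -0.15 (SE 0.15, n = 3 pairs; limma adjusted p = 0.878), a fold of 0.90 with a 95% interval of 0.71 to 1.14. Within the animals it was -0.047, -0.088 and -0.33.

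The other Igf1 probe set, 1388469_at, did not show this. Its intensity was 303.8, 299.1 and 310.1 in ipsilateral muscles and 240.8, 291.7 and 351.8 in contralateral muscles, which overlap fully, since the contralateral values hold both the lowest and the highest of the 6. The ipsilateral values were close together, with an SD of 5.52, against 55.6 in contralateral muscle. The difference was 0.06 (SE 0.16; limma adjusted p = 0.964), or 0.32, 0.034 and -0.17 in animals 4, 5 and 6. Over the 6 libraries the probe sets correlated at r = 0.06, so they do not order the libraries alike. Over all 1143 pairs of tested probe sets of 1 gene the median was 0.22. The quartiles were -0.18 and 0.58, so the value of Igf1 was not unusual. The disagreement in the side difference, -0.21 for the brighter minus the dimmer probe set (95% interval -0.76 to 0.33), did not pass limma's test of such pairs (adjusted p = 0.999). It was -0.36, -0.12 and -0.15 in animals 4, 5 and 6 (SD 0.13), of 1 sign in all 3, and the test's moderated SE was 0.25. The share of all pairs with 1 sign in all 3 animals was not computed, so the shared sign carries no weight here. Of the 4 such pairs among the members 0 passed, as did 0% of all of them, and at an unadjusted p under 0.05 it was 0 of 4 against 2.36%. Opposite signs within a gene occurred in 1 of the 4, against 36.8% of all pairs.

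Igf1r, the receptor through which IGF1 signals, had 1 probe set, 1368123_at, whose intensity was near the filter's 42.4. It was at 46.2, 59.8 and 52.1 in ipsilateral muscles and at 39.3, 57.0 and 55.4 in contralateral muscles. Both muscles of animal 4 were the lowest of their side and both of animal 5 the highest, so the libraries were ordered by animal, not by side. The side difference was 0.05 (SE 0.16; limma adjusted p = 0.969), a fold of 1.04 with a 95% interval of 0.80 to 1.34.

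Igfbp3 is the main carrier of IGFs in blood and is also made in tissues, where it can hold IGF1 away from its receptor. Its probe set 1367652_at had intensities of 55.7, 30.6 and 36.2 in ipsilateral muscles, against 92.7, 53.2 and 71.1 in contralateral muscles. Each ipsilateral value was below that of its own animal, but the groups overlapped, because both muscles of animal 4 were bright and both of animal 5 dim. The differences were alike in size, at -0.60, -0.57 and -0.74 in animals 4, 5 and 6. Their SD of 0.09 was below that of the libraries within a side, 0.32 in ipsilateral and 0.33 in contralateral muscle. The mean difference was -0.64 (SE 0.16, n = 3 pairs; limma unadjusted p = 0.00311, adjusted p = 0.484), a fold of 0.64 with a 95% interval of 0.50 to 0.83. In the ipsilateral muscles of animals 5 and 6 this probe set was below the filter's intensity of 42.4, which it passed by its mean over all libraries.

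The brighter Igfbp3 probe set, 1386881_at, gave intensities of 81.3, 68.5 and 89.2 in ipsilateral muscles and 92.0, 97.9 and 119.2 in contralateral muscles. Here the groups did not overlap. The difference was -0.32 (SE 0.15; limma unadjusted p = 0.0681, adjusted p = 0.776), a fold of 0.80 with a 95% interval of 0.63 to 1.02, and within the animals it was -0.15, -0.43 and -0.36. The probe sets differed by 0.32 in the size of the side difference (95% interval -0.21 to 0.86; limma adjusted p = 0.999 for such pairs), and they correlated at r = 0.62 over the 6 libraries. With both averaged, in a fit over 7117 genes chosen after seeing the data, Igfbp3 differed by -0.48 (SE 0.15; limma unadjusted p = 0.00946, adjusted p = 0.512), or -0.38, -0.50 and -0.55 in animals 4, 5 and 6. At the level of genes, 6.7% had an unadjusted p under 0.05. The average includes the dimmer Igfbp3 probe set, which passed the filter through its contralateral values. Its p is therefore not separate evidence of a lower Igfbp3. With the filter at the 60th percentile only the brighter probe set was tested, with a limma unadjusted p of 0.071. With 3 pairs, an exact sign-flip test of a single value cannot give a two-sided p below 0.25. A lower value in all 3 animals was found for 3 of the 10 probe sets, both of Igfbp3 and 1 of Igf1, against 15.1% of all tested probe sets.

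Markers of other cells were read beside these values, and none passed the adjusted threshold. A gene was lower in all 3 animals in 15.8% and higher in all 3 in 12.1% of all tested genes. Of 10 macrophage markers 7 had a named probe set, all of them tested, and 5 of these were lower ipsilaterally in all 3 animals. Their summed intensity was 2732 to 3816 in ipsilateral and 3936 to 4197 in contralateral muscle. Of 6 tested endothelial markers, 3 were higher in all 3 animals and none was lower in all 3, with sums of 858 to 1175 in ipsilateral and 743 to 843 in contralateral muscle. Of 4 tested adipocyte markers, 3 were higher in all 3 animals and all 4 were higher at an unadjusted p under 0.05 (3.54% of all tested genes), with sums over 6 markers of 2353 to 3958 in ipsilateral and 1974 to 2650 in contralateral muscle. All 10 fibroblast and tendon markers were tested, of which 5 (Pdgfra, Lum, Postn, Tnmd and Fmod) were measured higher in every animal and Dcn lower in every animal, with sums of 10243 to 11699 in ipsilateral and 10030 to 11199 in contralateral muscle. Of 6 tested smooth muscle and pericyte markers, 1 was higher and 2 were lower in all 3 animals. Of 4 tested Schwann cell and nerve markers, 2 were higher and 1 was lower in all 3. No marker of these lists was at 0 in any library. The part of these cells in the Igfbp3 and Igf1 values was not tested, and in whole muscle fewer cells of a type cannot be told apart from less RNA per cell.

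**Figure D2:**
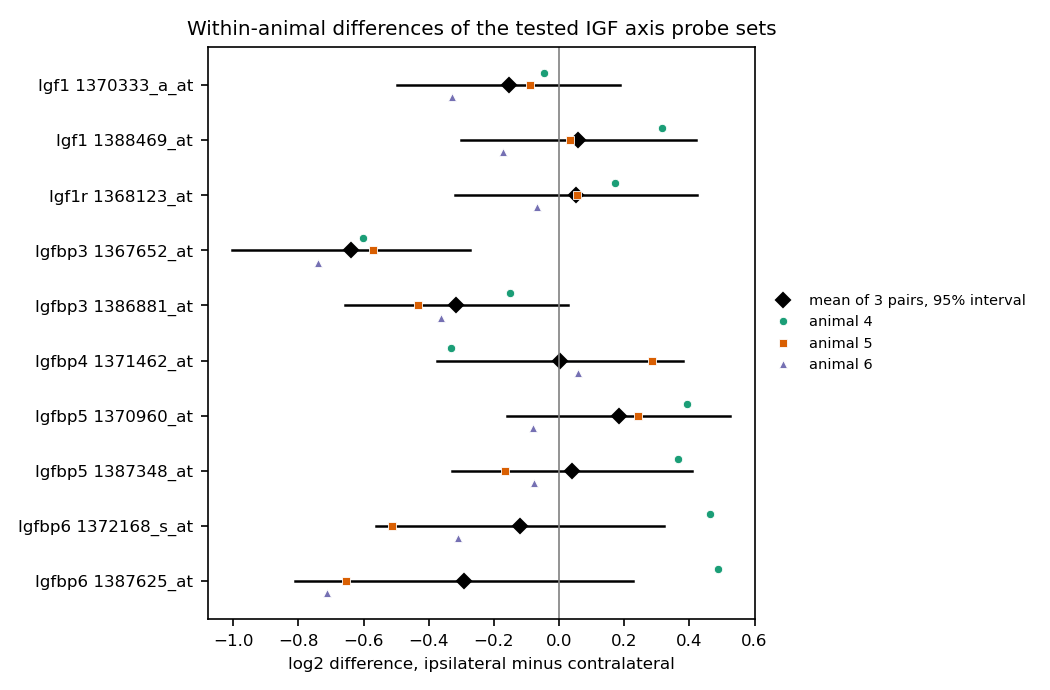
Log2 difference, ipsilateral minus contralateral, of the 10 tested probe sets. Diamonds are means of 3 pairs with limma's 95% interval, and small symbols are the animals. The interval of Igfbp3 1367652_at, from -1.0 to -0.27, lies below 0, and all the others include 0.

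Igfbp6, the binding protein that prefers IGF2 to IGF1, was measured with 2 probe sets that gave the same pattern. With 1372168_s_at the intensity was 951.3, 518.9 and 632.0 in ipsilateral muscles of animals 4, 5 and 6, against 685.5, 746.5 and 787.9 in contralateral muscles. With 1387625_at it was 552.9, 344.0 and 367.4 in ipsilateral muscles, against 389.5, 549.9 and 612.7 in contralateral muscles. In both, the ipsilateral muscle was the brighter one in animal 4 and the dimmer one in animals 5 and 6. The differences were 0.46, -0.51 and -0.31 for the first and 0.49, -0.65 and -0.71 for the second, and the probe sets correlated at r = 0.84 over the 6 libraries. In the maker's naming the ending _s_at marks probes shared by several transcripts, so the first may not read Igfbp6 alone.

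Averaged over 3 pairs the Igfbp6 differences were -0.12 (SE 0.20; limma adjusted p = 0.93) and -0.29 (SE 0.23; limma adjusted p = 0.847). Without animal 4 they were -0.41 (limma adjusted p = 0.196) and -0.68 (limma adjusted p = 0.0414), in a fit of 4 libraries in which 2.53% of all tested probe sets passed. That fit has 1 residual degree of freedom. The summed intensity of 10 fibroblast and tendon markers was 11699, 10243 and 10835 in ipsilateral muscles of animals 4, 5 and 6, against 10030, 11199 and 10438 in contralateral muscles. The sum, in which bright collagens and decorin weigh most, had the sign of Igfbp6 in animals 4 and 5, but not in animal 6. The median difference of these markers, which weighs them equally, was above 0 in every animal, at 0.22, 0.23 and 0.089. Its part in the Igfbp6 values was not tested, nor was that of the spike and protamine signals of animal 4.

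Igfbp5, the binding protein that differentiating myoblasts make, had its brightest signal with 1370960_at. The intensity was 985.9, 805.1 and 1017.0 in ipsilateral muscles and 748.0, 679.0 and 1076.9 in contralateral muscles, so ipsilateral values were higher in animals 4 and 5 and lower in animal 6. The difference was 0.18 (SE 0.15; limma adjusted p = 0.85), a fold of 1.14 with a 95% interval of 0.90 to 1.44. It was 0.080 without animal 4 and 0.32 without animal 6. Probe set 1387348_at gave 165.0, 99.8 and 101.8 in ipsilateral muscles against 124.7, 113.8 and 108.2 in contralateral muscles, which is higher in animal 4 and lower in the other two. Its difference was 0.04 (SE 0.16; limma adjusted p = 0.97). The 2 probe sets correlated at r = 0.08 over the libraries and differed by 0.14 in the side difference (95% interval -0.41 to 0.70). The third, 1387347_at, was near the bottom of the scale at 3.1 to 4.0 in ipsilateral and 3.2 to 5.9 in contralateral libraries, and was not tested. The first of these probe sets thus had its highest values in both muscles of animal 6, and the second in ipsilateral 4.

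Igfbp4, which inhibits IGF action until the protease PAPP-A cleaves it, had 1 probe set, 1371462_at. Its intensity was 166.2, 231.0 and 167.6 in ipsilateral muscles and 213.3, 186.9 and 160.4 in contralateral muscles. The signs were opposite in animals 4 (-0.33) and 5 (0.28), with 0.058 in animal 6, and the mean difference was 0.0032 (SE 0.17; limma adjusted p = 0.998). The fold was 1.0 with a 95% interval of 0.77 to 1.30. Igfbp2, abundant in fetal tissue, lay below the filter and was not tested. Its intensity was 58.6, 29.7 and 43.7 in ipsilateral muscles and 47.2, 29.0 and 32.2 in contralateral muscles, higher on the ipsilateral side in each animal by 0.24, 0.022 and 0.31. The 29.7 and 29.0 of animal 5 were nearly equal.

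**Figure D3:**
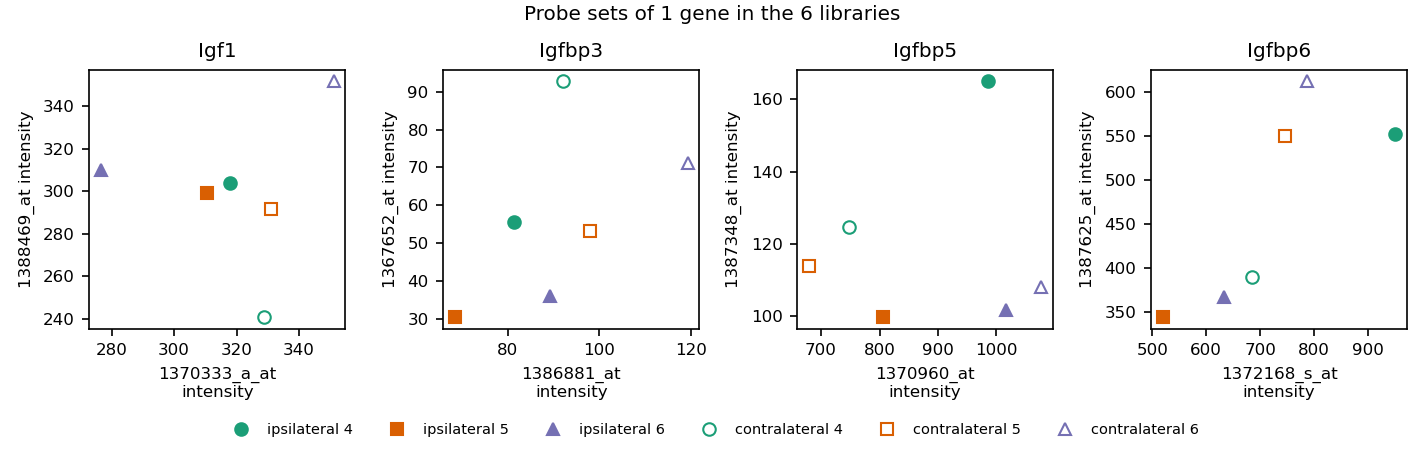
Intensities of the brighter (x axis) and the dimmer (y axis) tested probe set of the 4 genes with more than 1, with filled symbols for ipsilateral and open ones for contralateral libraries; axes do not start at 0. The points of Igfbp6 (r = 0.84) and Igfbp3 (r = 0.62) run upward, and those of Igf1 (r = 0.06) and Igfbp5 (r = 0.08) do not.

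The members shared little of a common course over the libraries. Among the brightest tested probe sets of 6 genes, the correlations over the 6 libraries, which come from 3 animals, ran from -0.72 for Igfbp4 with Igfbp5 to 0.54 for Igf1 with Igfbp3. These are descriptions, and r over so few libraries is imprecise. Genes outside the axis with the most similar course were picked from all other tested named genes, by the highest Pearson r over the 6 libraries, so high values are a product of the selection. For Igf1 1370333_a_at they were Secisbp2l (0.99), Slc35c1 (0.98) and Vps45 (0.97). For Igfbp3 1386881_at they were Cotl1 (0.98), Mecr (0.98) and Cd83 (0.97). For Igfbp6 1372168_s_at they were Snrpd3 (0.98), Evi2b (0.98) and Fshb (0.97). For Igf1r they were Xab2 (1.0), Ankmy2 (0.99) and Mlxip (0.99), for Igfbp4 Apln (0.98), Nxt1 (0.97) and Smurf1 (0.97), and for Igfbp5 Fmo1 (0.98), Ube2q2 (0.97) and Ube2d2 (0.97).

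The genes of the axis lie in part side by side. In RefSeq's promoter table of the rat build GRCr8, which holds all 7 members, Igfbp2 and Igfbp5 start 49.4 kb apart on chromosome 9, on opposite strands. Igfbp3 starts 16.7 kb from Igfbp1, a binding protein made mainly in liver, on chromosome 14. Igfbp1 was also below the filter, at 18.2, 28.8 and 19.7 in ipsilateral muscles and 30.9, 30.8 and 42.5 in contralateral muscles. It was not tested and was chosen after its values were seen, so it gives no support for a lower Igfbp3.

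The 250 bases upstream of the RefSeq start are shown for Igfbp3, whose probe sets were lower in every animal, and, to set beside it, for Igf1 and Igfbp6, whose values were split by probe set or by animal. Letters run 5′ to 3′ on the strand of the gene. The windows are chr14:86277945-86278194 (minus strand) for Igfbp3, chr7:24172282-24172531 (plus strand) for Igf1 and chr7:135154669-135154918 (plus strand) for Igfbp6, all in GRCr8. Capitals mark matches on either strand. The motifs searched were the TATA box written as TATAAA, its variant spelled TATATA, the GC box, which reads GGGCGG, the E-box form that reads CACGTG, and the core bound by STAT factors, which reads TTCNNNGAA.
Igfbp3: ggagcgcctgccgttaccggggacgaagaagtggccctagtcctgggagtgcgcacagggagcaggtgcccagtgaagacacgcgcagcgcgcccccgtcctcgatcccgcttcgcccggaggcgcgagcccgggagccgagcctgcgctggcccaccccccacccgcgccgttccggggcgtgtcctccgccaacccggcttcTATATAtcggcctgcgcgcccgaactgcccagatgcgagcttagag
Igf1: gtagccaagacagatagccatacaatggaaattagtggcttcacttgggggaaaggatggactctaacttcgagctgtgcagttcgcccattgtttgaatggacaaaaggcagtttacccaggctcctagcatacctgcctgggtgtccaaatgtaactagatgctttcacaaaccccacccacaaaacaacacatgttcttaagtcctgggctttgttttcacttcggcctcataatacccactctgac
Igfbp6: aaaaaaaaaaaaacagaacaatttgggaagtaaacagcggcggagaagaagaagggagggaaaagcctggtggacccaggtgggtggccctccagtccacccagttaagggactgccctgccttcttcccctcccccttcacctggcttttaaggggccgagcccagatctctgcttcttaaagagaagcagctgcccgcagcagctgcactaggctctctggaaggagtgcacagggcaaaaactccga
The Igfbp3 window held TATATA, beginning 46 bases before the start, and the other 2 windows held no match. Of 33469 promoter windows of this length, 5.45% hold TATATA, 12.9% TATAAA, 30.5% GGGCGG, 5.59% CACGTG and 7.67% TTCNNNGAA. Of the members not printed, Igfbp4 held TATAAA, Igf1r and Igfbp2 held GGGCGG and CACGTG, and Igfbp5 held none. TATAAA and TATATA can overlap, but no member held both.

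Around the axis, 89 further genes were sorted by role into 6 lists, of which 73 genes had a named probe set and 52 were tested, with the brightest probe set standing for a gene. None passed the adjusted threshold. At an unadjusted p under 0.05 there were 3 of the 52, 2 higher and 1 lower, against 6.42% of all genes tested this way (3.54% higher and 2.88% lower). The 1 lower gene, Cish, passed the filter through its contralateral values. The median difference over all tested genes was -0.018, and those of the lists ran from -0.12 to 0.12.

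Growth hormone input, which drives IGF1 synthesis through JAK2 and STAT5, held 2 of the 3 genes. Cish, a feedback inhibitor that STAT5 switches on, was at 36.3, 55.5 and 18 in ipsilateral muscles and 54.2, 215.5 and 33.3 in contralateral muscles. It was lower in each animal, but the groups overlapped and contralateral 5 alone stood high. It passed the filter through its contralateral values, as its mean was 36.6 in ipsilateral and 101 in contralateral muscle. The difference was -0.89 (SE 0.25; limma unadjusted p = 0.00531, adjusted p = 0.545). Stat5b, the transcription factor itself, was at 151.2, 81.7 and 97.6 in ipsilateral muscles and 112.6, 50.6 and 52.4 in contralateral muscles. It was higher in each animal, by 0.56 on average (SE 0.16; limma unadjusted p = 0.00565, adjusted p = 0.545). Cish and Stat5b thus differed in sign, but the activity of STAT5 was not measured and a link between them was not tested. Socs2, another feedback inhibitor of growth hormone signalling, differed by 0.60, -0.42 and -0.94 in animals 4, 5 and 6. Its mean difference was -0.25 (SE 0.27; limma unadjusted p = 0.364, adjusted p = 0.89). Igfbp6 had the same signs, but so did Ctsd, Des and Gap43 among others, and how common they are was not tested. Socs2 was also dim, at 23 in ipsilateral 6 and 28.9 in contralateral 4, both below the filter's intensity. Ghr, the growth hormone receptor, differed by -0.04 (SE 0.15; limma adjusted p = 0.973) and Stat5a by -0.08 (SE 0.16; limma adjusted p = 0.947). The list's median was -0.075 over 6 tested genes, with 1 gene higher and 1 lower in all 3 animals.

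Of the other ligands, receptors and binding proteins, 4 of 9 were tested, with a median of 0.081, and none had 1 sign in all animals. Igf2, the fetal growth factor, was at 372.2, 797.1 and 657.2 in ipsilateral muscles and 418.5, 357.4 and 592.8 in contralateral muscles with its bright probe set, a difference of 0.37 (SE 0.23; limma adjusted p = 0.812) carried by animal 5. Its other 3 probe sets were below the filter, with differences of -0.017, 0.20 and -0.40. Ins1, the pancreatic hormone insulin, read 73.9 ± 7.32 in ipsilateral and 69.0 ± 8.61 in contralateral muscle (SD, n = 3 each). The mannose phosphate receptor Igf2r, which clears IGF2, and Igfbp7, a low-affinity relative of the binding proteins, differed by 0.08 and -0.02. The insulin receptor Insr was too dim to test, at 42.2, 51.5 and 40 in ipsilateral and 17.1, 56.0 and 35.7 in contralateral muscles.

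Among proteases that cut binding proteins and their inhibitors, 6 of 11 genes with a named probe set were tested, with a median of 0.12 and none at an unadjusted p under 0.05. The lysosomal protease Ctsd differed by -0.21 (SE 0.16) and Htra1, a secreted serine protease, by -0.16 (SE 0.15). The difference of Htra1 was -0.16 in each of the 3 animals. It was at 378.7, 374.2 and 359.5 in ipsilateral muscles, against 424.4, 420.2 and 402.4 in contralateral muscles, without overlap. Pappa, the protease of Igfbp4, was not analysed here.

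Receptor adaptors had a median of -0.051 over 8 tested genes. Sh2b2, an adaptor of the insulin receptor, was at 85.9, 93.1 and 68.2 in ipsilateral muscles and 44.0, 87.2 and 44.5 in contralateral muscles, a difference of 0.44 (SE 0.18; limma unadjusted p = 0.0344, adjusted p = 0.77) that was only 0.080 in animal 5. The phosphatase Ptpn11 differed by -0.24 (SE 0.15; limma adjusted p = 0.812), and a dim probe set of it by 0.21. The PI3K, Akt and mTOR branch had a median of -0.032 over 21 tested genes, with 5 higher and 3 lower in all 3 animals (12.1% and 15.8% of all tested genes) and none at an unadjusted p under 0.05. Tsc2, a brake on mTOR, differed by -0.25 (SE 0.15; limma adjusted p = 0.8) and Rheb, the GTPase that Tsc2 inactivates, by -0.23 (SE 0.14; limma adjusted p = 0.809). A dim probe set of Rheb gave -0.012. Akt1, Mtor and Foxo3, a transcription factor that Akt inhibits, differed by -0.032, 0.15 and 0.15. The Ras and MAPK branch had a median of -0.12 over 7 tested genes, none at an unadjusted p under 0.05. Its kinase Araf differed by -0.32 (SE 0.18) and the phosphatase Dusp1 by -0.20 (SE 0.16), with -0.068 and -0.16 from their other probe sets.

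**Figure D4:**
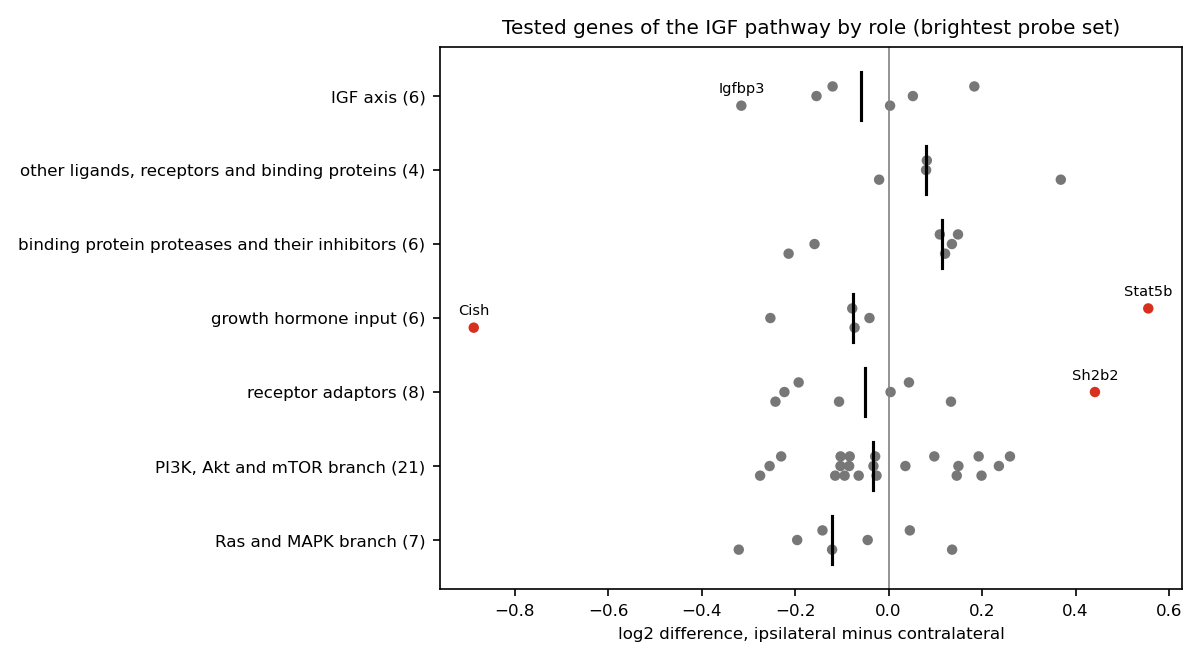
Log2 difference, ipsilateral minus contralateral, of each tested gene by role, with the number of tested genes in brackets; 1 point is the brightest probe set of a gene, the black bar is the list median, and red marks an unadjusted p under 0.05. Cish (-0.89), Stat5b (0.56) and Sh2b2 (0.44) are the red points, and the list medians lie between -0.12 and 0.12.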

How the data were processed

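Expression of 6 tibialis anterior libraries was read from the table of intensities that the authors deposited, on a linear scale with 1 value per probe set and array. The values show a trimmed mean of about 150 on each array. No label or header names the software behind them. Probe sets were named through a platform annotation, which can be old (1 symbol for 12789, several for 312, none for 2822), and checked against a RefSeq gene table of GRCr8.

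Values were used as log2(intensity + 15.8), the constant being the 20th percentile. Arrays were not normalized further, since their log2 medians lay within 0.117. The 57 control probe sets and those at or below the 40th percentile of mean log2 value (an intensity of 42.4) were left out, which left 9519. Sides were compared with limma 3.58.1 under R 4.3.3 (lmFit, eBayes with trend), the animal being a block, which leaves 2 residual degrees of freedom. P-values were adjusted over the 9519 by Benjamini-Hochberg. Pairs of probe sets of 1 gene were compared in the same way, on within-animal differences. The procedure was also run on simulated data, with 1 common residual spread for all probe sets and libraries. That checks the computation and not its error rates in these data. Both muscles came from 1 animal, which gives the pairing. Deviations from group means correlated within animals at -0.041, 0.072 and 0.13 over probe sets.

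The members and lists were chosen with earlier results of these data known. All member probe sets are named, as are the 3 genes most like each member and the 2 with the smallest p in each list of at least 4 tested genes. Genes named beyond these, and Igfbp1, were chosen after their values were seen. Alternatives covered the block, the constant, normalization, the filter, the variance prior and each animal left out. Python 3.11.15 with matplotlib 3.10.9 drew the figures.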

Additional observations from a re-analysis of the deposited data

How the results depend on the processing

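The fit without the replicate block also had 0 probe sets with an adjusted p under 0.05 and 1 member with an unadjusted p under 0.05, and the block changed no call of a member. Over all alternatives the difference of Igfbp3 stayed below 0, from -0.82 to -0.46 with 1367652_at and from -0.40 to -0.25 with 1386881_at. Under most of them this sign was fixed in advance. Both probe sets were lower in every animal, so leaving out an animal or changing the constant could not reverse it. Nor could the block, the filter or the variance prior. The ranges therefore show how the size varied and are no test of the direction. Leaving out 1 animal gave 0 to 241 probe sets with an adjusted p under 0.05, 1 to 3 members with an unadjusted one, and 0 pairs of probe sets that disagreed. The 241 and the 3 came without animal 4, when both Igfbp6 probe sets joined Igfbp3 1367652_at, and when 15.7% of all tested probe sets had an unadjusted p under 0.05, against 2.34% without animal 5 and 4.09% without animal 6. Differences of tested members that changed sign with 1 animal left out were those of Igf1 1388469_at (-0.070 to 0.18), Igf1r (-0.0070 to 0.11), Igfbp4 (-0.14 to 0.17), Igfbp5 1387348_at (-0.12 to 0.14) and Igfbp6 1372168_s_at (-0.41 to 0.076). The untested Igfbp5 1387347_at was at 0.0080 without animal 6. Without the pairing and ipsilateral 4, a setting chosen after seeing the data, 87 probe sets and 3 members passed these thresholds (12.1% of all tested probe sets passed the unadjusted one), and Igfbp5 1387348_at was at -0.17. With the filter at the 60th percentile 0 members passed, because Igfbp3 1367652_at was no longer tested. Of 118 differences of tested members under alternatives, 107 kept their sign and their side of an unadjusted p of 0.05, 7 changed sign and 4, all of Igfbp6, passed it newly. All of these changes came with an animal or a library left out. The block, the filter and the variance prior cannot alter a mean difference in this paired design. Under those settings the sign was fixed in advance, so the 107 overstate how stable the differences are. Probe sets close to the filter, Igf1r and Igfbp3 1367652_at, are the least certain, as the detection of dim signals could not be checked from intensities alone. Ins1, the pancreatic hormone, read 59.9 to 82.2 over the 6 libraries. That is above every value of Igf1r, within the range of Igfbp3 1367652_at, and overlaps the ipsilateral values of 1386881_at. A signal at this level therefore does not by itself show that a transcript was present.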
